A study of Arabidopsis thaliana with 4 samples.

Results

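Danger peptides and immune receptors of the Arabidopsis root are described here by 8 genes: 3 precursors of danger peptides (PROPEP1, AT5G64900; PROPEP2, AT5G64890; PROPEP3, AT5G64905), the 2 receptors of those peptides (PEPR1, AT1G73080; PEPR2, AT1G17750), the flagellin receptor FLS2 (AT5G46330), the chitin receptor CERK1 (AT3G21630) and the flagellin-induced receptor kinase FRK1 (AT2G19190). They were taken as 8 named loci out of the 22284 loci with reads, with the counts of all transcript models of a locus summed; each of the 8 has 1 model in the count table, and all 8 had reads in every library. The genes were chosen with their counts in all 4 libraries already known. Their values are therefore given as a description, and no test was made on them.

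Damaged plant cells release Pep peptides, which are cut from the carboxy end of PROPEP proteins. PEPR1 and PEPR2, leucine-rich repeat receptor kinases of the plasma membrane, bind these peptides. FLS2 is a receptor kinase of the same kind that binds a piece of bacterial flagellin, and CERK1 carries lysin motifs and takes part in the perception of chitin, a polymer of fungal walls. All of them signal through co-receptors, cytoplasmic kinases, calcium, reactive oxygen and MAP kinases. PROPEP genes and FRK1 are themselves induced by this signalling, and FRK1 is widely used as its marker gene.

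Roots of Arabidopsis thaliana in the Col-0 background were compared in 4 groups: wild type and a double mutant line labelled arf10/16, each with 0 or 10 µM AlCl3 for 24 h. Both mutated genes, ARF10 and ARF16, encode auxin response factors, and the title of the series concerns a different Al response of the mutant. Every group was grown for 6 days and treated in 2% MGRL nutrient solution at pH 5.0, a level of acidity at which aluminium is toxic to roots. The treatment used about 500 seedlings, and 1 library was made per group, of 2080348 to 2280894 reads. The labels give no alleles and no replicate libraries.

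ARF10, one of these genes, had 110 reads in untreated wild type, 3820 in the untreated library labelled arf10/16, 142 in Al-treated wild type and 2640 in the Al-treated library labelled arf10/16. ARF16 had 159, 71, 75 and 41 reads in the same order. ARF10 reads were thus higher, not lower, in both libraries labelled arf10/16, while ARF16 reads were lower at both Al levels. Without the alleles these counts cannot check the label, and the line is named by its label throughout. Every direction between genotypes rests on that label. Of 7 marker genes of green shoot tissue, CAB1 had 18 to 53 reads and each of the others at most 8, with LHCA1, LHCA3, LHB1B1 and RBCS3B at 0 in at least 1 library.

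The 3 PROPEP genes lie next to each other on chromosome 5, with no other annotated gene between them, in the RefSeq annotation of the genome build TAIR10.1. The peptide region is what defines the family. Below are the last 69 coding bases of PROPEP1, which encode its 23-residue peptide, and the best-matching in-frame windows of the other 2 genes, all on the plus strand, 5′ to 3′. Capitals mark the 30 bases that all 3 share.
PROPEP1: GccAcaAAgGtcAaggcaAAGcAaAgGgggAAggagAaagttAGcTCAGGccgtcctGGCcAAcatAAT
PROPEP2: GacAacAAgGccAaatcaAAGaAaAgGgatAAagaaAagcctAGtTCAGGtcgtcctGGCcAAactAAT
PROPEP3: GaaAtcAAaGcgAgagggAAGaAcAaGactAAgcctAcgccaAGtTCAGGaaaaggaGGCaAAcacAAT
PROPEP2 shared 51 of the 69 bases with PROPEP1 and PROPEP3 shared 34. In PROPEP2 the window is followed by 13 more codons before the stop codon, while in PROPEP1 and PROPEP3 it ends at the stop. Over the aligned coding bases, with gaps left out, PROPEP1 was 73.8% identical to PROPEP2 (279 bases) and 63.6% to PROPEP3 (264 bases). The longest exact run shared by any pair of the 3 was 12 bases. PEPR1 and PEPR2 were 75.5% identical over 3254 aligned coding bases, with a longest exact run of 32 bases. How reads matching more than 1 gene were counted is not stated, so closely related genes may share reads.

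The stretches upstream of the PROPEP genes are shown because these 3 neighbours had like genotype ratios without Al, but unlike ones with Al and unlike Al ratios (below). Each line gives the 250 bases before the annotated gene start on the plus strand of chromosome 5 (RefSeq, TAIR10.1), which overlap no other annotated gene. Capitals mark the W-box, the element that WRKY transcription factors bind, searched as TTGACC or TTGACT on either strand, so that it also reads GGTCAA or AGTCAA; no matches overlapped.
PROPEP1: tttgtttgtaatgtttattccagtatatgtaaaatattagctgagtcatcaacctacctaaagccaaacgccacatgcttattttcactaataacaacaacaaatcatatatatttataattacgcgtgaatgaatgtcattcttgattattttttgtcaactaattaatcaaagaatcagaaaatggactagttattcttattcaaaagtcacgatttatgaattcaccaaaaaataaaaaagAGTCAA
PROPEP2: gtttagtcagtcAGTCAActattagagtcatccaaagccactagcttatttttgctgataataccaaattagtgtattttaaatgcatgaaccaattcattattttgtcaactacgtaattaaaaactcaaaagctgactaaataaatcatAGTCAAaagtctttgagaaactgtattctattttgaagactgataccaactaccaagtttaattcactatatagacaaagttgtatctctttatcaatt
PROPEP3: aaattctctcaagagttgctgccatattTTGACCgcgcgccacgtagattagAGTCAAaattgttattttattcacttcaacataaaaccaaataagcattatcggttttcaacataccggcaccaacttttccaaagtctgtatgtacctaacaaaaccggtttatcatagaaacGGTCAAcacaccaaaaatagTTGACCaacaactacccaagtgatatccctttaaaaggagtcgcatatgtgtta
PROPEP1 held 1 match, PROPEP2 held 2 and PROPEP3 held 4. PEPR1 and FRK1 held 2 matches each, CERK1 held 1, and PEPR2 and FLS2 held none in the same window. Of 27443 promoters of protein-coding genes on chromosomes 1 to 5, 28.4% held at least 1 match, 6.2% at least 2 and 0.12% at least 4. The windows of PEPR1 and CERK1 overlap a neighbouring gene. A match is a string of letters and was not tied to binding in these data.

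Of the 3 ligand genes, PROPEP3 had the most reads per length in 3 of the 4 libraries. Its level was 147 RPKM (reads scaled by model length and library size, as deposited) in wild type without Al, against 21.7 for PROPEP1 and 29.9 for PROPEP2. With Al the order in wild type was PROPEP1 with 58.6 RPKM, PROPEP3 with 43.3 and PROPEP2 with 22.5. In the untreated library labelled arf10/16 the 3 genes stood at 72.6, 91.5 and 496 RPKM in numerical order, and with Al at 68.0, 36.2 and 167. PROPEP3 thus led everywhere except in Al-treated wild type.

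**Figure D1:**
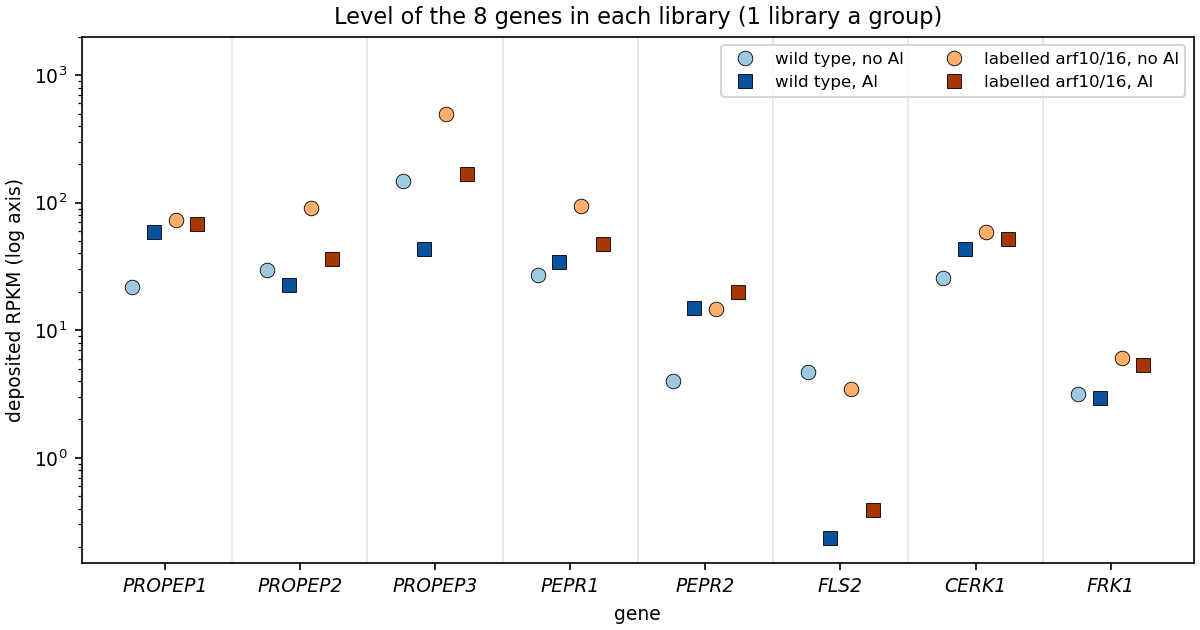
Deposited RPKM (log axis) of the 8 genes in each of the 4 libraries, with light symbols for no Al, dark symbols for Al, blue for wild type and orange for the line labelled arf10/16. The untreated library labelled arf10/16 lies above untreated wild type for every gene except FLS2, and both Al-treated libraries lie below 0.4 RPKM for FLS2.

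PROPEP3 had 159 reads in untreated wild type, 528 in the untreated library labelled arf10/16, 48 in Al-treated wild type and 169 in the Al-treated library labelled arf10/16. Both Al-treated libraries lay below the untreated library of their genotype, and the line labelled arf10/16 lay above wild type at both Al levels. All ratios below are ratios of counts scaled by TMM library sizes, with an exact 95% counting interval that covers counting error only and not the spread between plants or cultures. PROPEP3 was 3.69-fold higher in the line labelled arf10/16 without Al (3.09 to 4.44) and 4.14-fold higher with Al (2.99 to 5.83). With Al it was 3.16-fold lower for wild type (2.28 to 4.46); the pair labelled arf10/16 showed a 2.82-fold lower level (2.37 to 3.38). Its 4 levels had one order, and the interval of every neighbouring pair excluded a ratio of 1.

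PROPEP1, the precursor of the best-studied Pep peptide, had 25 reads in wild type without Al and 69 with Al, and 82 and 73 in the libraries labelled arf10/16. Untreated wild type was low and the other 3 libraries were alike: the neighbours among those 3 differed by 1.01- and 1.24-fold, with intervals that held 1. The gene was 2.89-fold higher with Al in wild type (1.81 to 4.77), and the untreated genotypes differed by 3.65-fold, higher in the line labelled arf10/16 (2.31 to 5.96). Both of these ratios are taken against the same untreated wild-type library.

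For PROPEP2 the single high library was the untreated one labelled arf10/16. It held 117 reads, against 39 in untreated wild type, 30 in Al-treated wild type and 44 in the Al-treated library labelled arf10/16. The gene was 3.34-fold higher in the line labelled arf10/16 without Al (2.31 to 4.93), and 2.40-fold lower with Al in that line (1.68 to 3.48). In wild type the Al ratio was 1.24-fold lower with an interval from 0.75 to 2.07 that held 1.

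The receptors of the peptides were, without Al, higher in the line labelled arf10/16 by about the same factor as the ligands. PEPR1 had 214 reads in untreated wild type, 731 in the untreated library labelled arf10/16, 280 in Al-treated wild type and 353 in the Al-treated library labelled arf10/16. It was 3.80-fold higher in the line labelled arf10/16 without Al (3.26 to 4.45) and 1.48-fold higher with Al (1.26 to 1.74). Al went with a 1.37-fold higher level for wild type (1.14 to 1.65), but with a 1.87-fold lower one for the pair labelled arf10/16 (1.64 to 2.13).

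PEPR2 had 30 and 109 reads without Al and 116 and 141 with Al, wild type first. As for PROPEP1, untreated wild type was the single low library: wild type with Al and the untreated library labelled arf10/16 stood at 51.0 and 50.9 CPM (scaled counts for equal library size). PEPR2 was 4.04-fold higher in the line labelled arf10/16 without Al (2.68 to 6.27), and 4.05-fold higher with Al in wild type (2.69 to 6.27). With Al it was 1.43-fold higher in the line labelled arf10/16 (1.11 to 1.84), and in that line Al went with a 1.43-fold higher level (1.11 to 1.86). Per length, PEPR1 exceeded PEPR2 in every library, with 27.0 against 3.98 RPKM in untreated wild type and 47.8 against 20.1 RPKM in the Al-treated library labelled arf10/16.

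FLS2, the flagellin receptor, was nearly unread with Al. It had 39 reads in untreated wild type and 28 in the untreated library labelled arf10/16, but 2 and 3 reads with Al. Al-treated wild type was 18.6-fold lower than untreated (4.82 to 159), and the treated library labelled arf10/16 was 8.43-fold lower (2.60 to 43.3). Between untreated genotypes it was 1.25-fold lower in the line labelled arf10/16, with an interval from 0.75 to 2.11 that held 1. With Al both libraries were at or under 3 reads, so no genotype ratio is given. RefSeq annotates 2 transcripts for FLS2 and 1 for each of the other 7 genes.

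Markers of differentiated root cells were also low in the Al-treated libraries. All 7 root hair markers had lower scaled counts with Al in both genotypes. By the rule of size given below, 7 of 7 were called lower in wild type and 5 of 7 in the pair labelled arf10/16 (12.1% and 9.41% of all loci). Under it were RHD6 (1.55-fold lower, 1.08 to 2.25) and PRP1 (2.02-fold lower, 1.55 to 2.65). The summed reads went from 1678 to 180 and from 1752 to 504. All 5 CASP genes of the endodermal Casparian strip were called lower in both pairs, from 991 to 100 and from 755 to 163 reads, with CASP4 at 0 in Al-treated wild type. Of 3 root cap markers above the filter, 3 were called lower with Al in wild type, against 0 in the pair labelled arf10/16. Summed over 4 listed markers, with SMB at 0 in both Al libraries, the reads were 96 and 21, and 59 and 39. The 5 vascular markers summed to 276 and 338 reads in wild type and to 245 and 227 in the pair labelled arf10/16, with APL at 0 in 3 libraries. The part of cell composition in the low FLS2 counts was not tested, and fewer cells of a type cannot be told apart from less RNA per cell in bulk roots.

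CERK1 had 119 reads in untreated wild type, 266 in the untreated library labelled arf10/16, 205 in Al-treated wild type and 221 in the Al-treated library labelled arf10/16. Untreated wild type was again the lowest. The gene was 2.49-fold higher in the line labelled arf10/16 without Al (2.00 to 3.11) and 1.27-fold higher with Al (1.04 to 1.54). In wild type it was 1.81-fold higher with Al (1.43 to 2.28). In the pair labelled arf10/16 the ratio was 1.09-fold lower with Al, with an interval from 0.91 to 1.31 that held 1.

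FRK1, the marker gene of flagellin signalling, was among the least read of the 8. It had 19 and 36 reads without Al and 18 and 30 with Al, wild type first. The genotypes separated and the Al levels did not: FRK1 was 2.11-fold higher in the line labelled arf10/16 without Al (1.18 to 3.89) and 1.96-fold higher with Al (1.06 to 3.74). With Al it was 1.01-fold lower for wild type (0.50 to 2.04), and 1.08-fold lower for the pair labelled arf10/16 (0.65 to 1.82), and both intervals held 1.

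**Figure D2:**
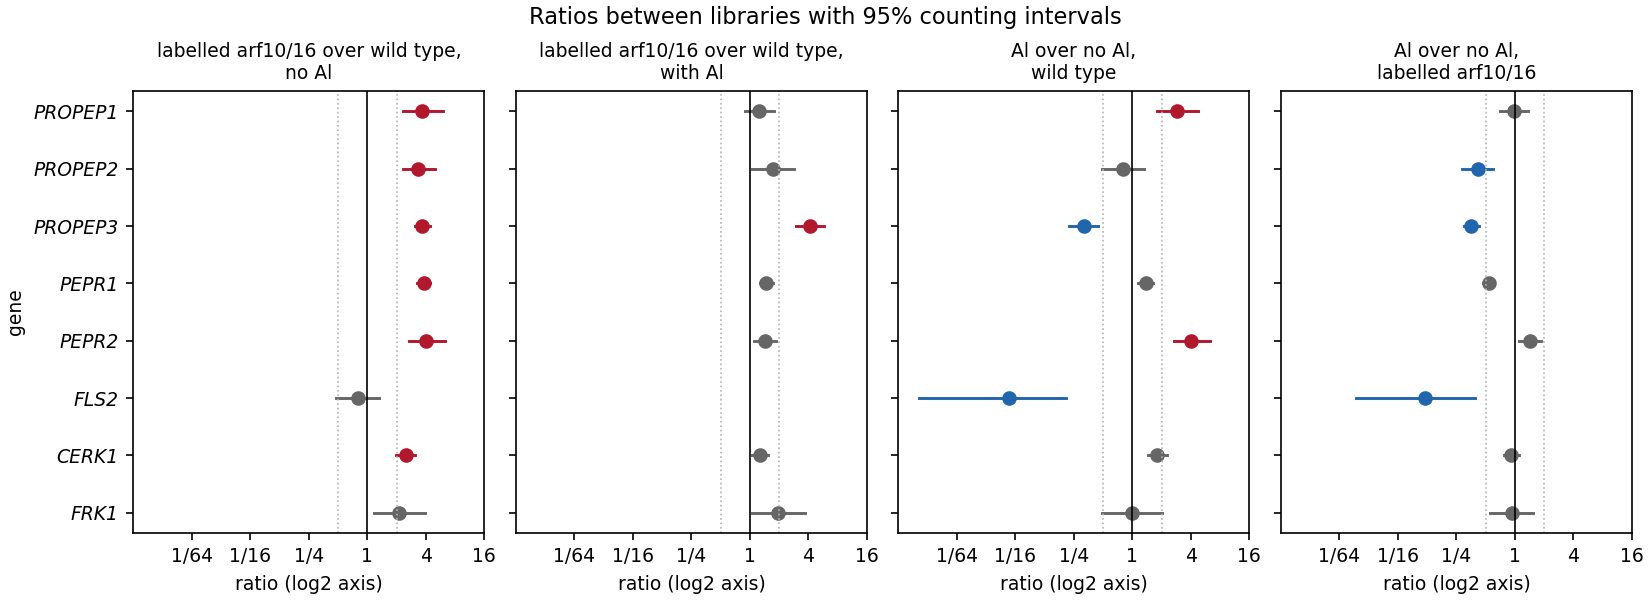
Ratios of scaled counts (log2 axis) for the 8 genes in the 4 comparisons, with 95% counting intervals as lines and dotted lines at 2-fold. Red marks genes past the rule of size upward (6 of 8 for genotype without Al, 1 of 8 with Al, 2 of 8 for Al in wild type), blue those past it downward (2 of 8 for Al in wild type, 3 of 8 for Al in the pair labelled arf10/16), and the ratio of FLS2 with Al is left out because both counts are at or under 3.

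A rule of size was applied across the 14739 loci kept after a filter on low counts, since 1 library a group allows no test of a pairwise difference. Under this rule a gene is called when its log2 ratio, with a prior count of 2, reaches 1 in either direction and its counting interval excludes a ratio of 1. All 8 genes passed the filter. Without Al, 6 of the 8 were higher in the line labelled arf10/16 and 0 lower, where 7.96% of all loci were higher and 2.6% lower (10.6% either way). FRK1 fell just under the fold of 2 on that scale (log2 ratio 0.995). With Al, PROPEP3 alone was past the rule, where 4.12% of all loci were higher (5.89% either way). The other ratios with Al were 1.24 (0.88 to 1.76) for PROPEP1 and 1.73 (1.06 to 2.84) for PROPEP2. All 7 root hair markers, 1 of 5 endodermal markers and 1 of 3 root cap markers were also past the rule upward between the Al-treated libraries, and their part in these ratios was not tested. For Al, PROPEP1 and PEPR2 were higher and PROPEP3 and FLS2 lower in wild type (14.4% and 12.1% of all loci, 26.5% either way), and PROPEP2, PROPEP3 and FLS2 were lower in the pair labelled arf10/16 (9.41% of all loci, 20.2% either way). The genes were chosen from these contrasts, so nothing is read from the counts.

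The Al ratios of the 2 genotypes were set side by side because the study asks whether the mutant responds differently. PROPEP3 had a log2 Al ratio of -1.62 for wild type against -1.49 for the pair labelled arf10/16, a difference of 0.16 with an interval from -0.37 to 0.68. The ratios carry the prior count of 2, while the differences and their normal-approximation intervals add 0.5 to each count, so they do not subtract exactly. PEPR1 went from 0.45 to -0.90 (difference -1.36, -1.67 to -1.04), PROPEP1 from 1.45 to -0.02 (-1.53, -2.33 to -0.74) and PEPR2 from 1.94 to 0.51 (-1.48, -2.16 to -0.80). These 3 genes were past the rule of size for the difference, which 4.97% of all loci passed in that direction and 8.45% in either. CERK1 followed with -0.97 (-1.38 to -0.55) and PROPEP2 with -0.95 (-1.79 to -0.10). The intervals of FLS2 (1.04, -1.41 to 3.48) and FRK1 (-0.10, -1.25 to 1.05) held 0. The difference and the genotype ratios rest on the same 4 libraries and are not separate evidence.

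**Figure D3:**
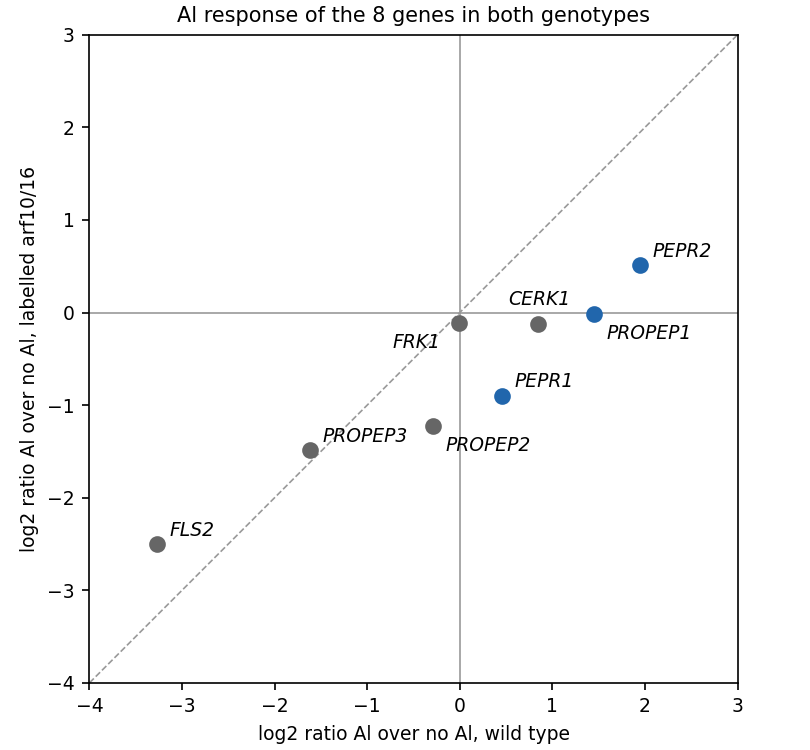
Log2 ratio of Al-treated over untreated libraries in wild type (x axis) against the pair labelled arf10/16 (y axis) for the 8 genes, with a dashed line of equal response. PEPR1, PROPEP1 and PEPR2 (blue) lie below the line with differences of -1.36, -1.53 and -1.48, while PROPEP3 and FRK1 lie near it.

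The 8 genes fell into like and unlike patterns over the 4 libraries. As a measure of likeness, the Euclidean distance between log2 CPM was taken after centring each gene on its own mean. The closest pairs were PROPEP1 with CERK1 (0.49), PROPEP1 with PEPR2 (0.54) and PROPEP2 with PEPR1 (0.58). PROPEP3 was no nearer than 1.197 to any other of the 8 genes, and FLS2 no nearer than 2.31. Among the other 14738 loci, the nearest to PEPR2 were ABCB21 (0.04) and MYB94 (0.08), and the nearest to CERK1 were SOT16 (0.06) and ERD7 (0.06). ABCB21 had 70 and 240 reads without Al and 264 and 312 with Al, wild type first. The nearest to PROPEP3 were AT1G53980 (0.22) and ZAT11 (0.25), which had 99 and 310 reads without Al and 32 and 90 with Al. The nearest to PROPEP1 were AT5G52530 (0.07) and AT3G05320 (0.09), to PROPEP2 AT3G51450 (0.10) and AT5G02160 (0.14), to PEPR1 AT1G58420 (0.16) and AT3G56200 (0.16), and to FRK1 AT5G66675 (0.07) and AT5G46910 (0.08). Several of these loci were barely read: AT5G52530 had 3 to 14 reads a library, AT5G02160 had 3 to 16 and AT1G53980 had 0 to 17. With 4 points these are descriptions.

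Around the 8 genes, 94 further genes of the same signalling were listed in 8 groups, of which 80 passed the filter. Without Al, 33 of the 80 were higher in the line labelled arf10/16 and 0 lower (7.96% and 2.6% of all loci), with a median log2 ratio of 0.88 against -0.004 over all loci. With Al, 16 of 80 were higher and 0 lower (4.12% and 1.77% of all loci), with medians of 0.55 and 0.04. Some listed genes were read too little to compare, such as the co-receptor gene BAK1 with 5 to 12 reads. These lists were drawn up with earlier results of the same libraries known, and were not tested as sets.

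A test was used only for these listed genes and for the touch and wounding genes listed below. It was edgeR's quasi-likelihood test of an additive model, with Al as the second factor and 1 residual degree of freedom. For genotype it sets the 2 libraries of one genotype against the 2 of the other. In it 18 of the 80 rose in the line labelled arf10/16 and 0 fell (1.86% and 0.305% of all loci) at an adjusted p of 0.05, and at an unadjusted p under 0.05, 44 passed (15.6% of all loci), 1 of them downward. DESeq2 gave 13 and 0. Limma-trend on the deposited RPKM gave 0 in either direction, with 41 at an unadjusted p under 0.05, and 2 of those downward, where 2208 of all loci passed. For Al, 18 of 80 rose and 9 fell (15.5% and 13.1% of all loci). Apart from TCH2, TCH3 and TCH4, the genes given a genotype effect or its adjusted p below were picked by their genotype ratio without Al in these same libraries. Their adjusted p is therefore no separate support. The test also assumes that both genotypes respond alike to Al, which the ratios of CYP81F2 and MPK3 below did not follow.

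Genes known to be induced early by flagellin, chitin or Pep peptide had the highest median of the 8 lists without Al. Of 15, 12 were higher in the line labelled arf10/16 without Al and 8 with Al (medians 2.19 and 1.10), against 7.96% and 4.12% of all loci. In edgeR's test 10 rose (1.86% of all loci). CYP81F2, a P450 of indole glucosinolate synthesis, had 50 and 694 reads without Al and 81 and 264 with Al, wild type first. It was 15.4-fold higher in the line labelled arf10/16 without Al (11.58 to 21.01) and 3.83-fold higher with Al (2.98 to 4.98). Its genotype effect was 2.92 ± 0.42 (log2, SE as the effect over the root of F, adjusted p = 0.0265, edgeR). The phosphatase gene AT1G07160 was 8.39-fold higher without Al (4.46 to 17.5) and 2.56-fold higher with Al (1.41 to 4.85). Its effect was 2.22 ± 0.40 (adjusted p = 0.0393, edgeR). With Al the early genes parted: NHL10 had 9 reads without and 198 with Al in wild type, 23.1-fold higher (11.9 to 51.1), and 32 and 373 reads in the pair labelled arf10/16. Of the 15 genes, 5 were higher and 3 lower with Al in wild type (14.4% and 12.1% of all loci), and 2 higher and 6 lower in the pair labelled arf10/16 (10.8% and 9.41% of all loci).

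**Figure D4:**
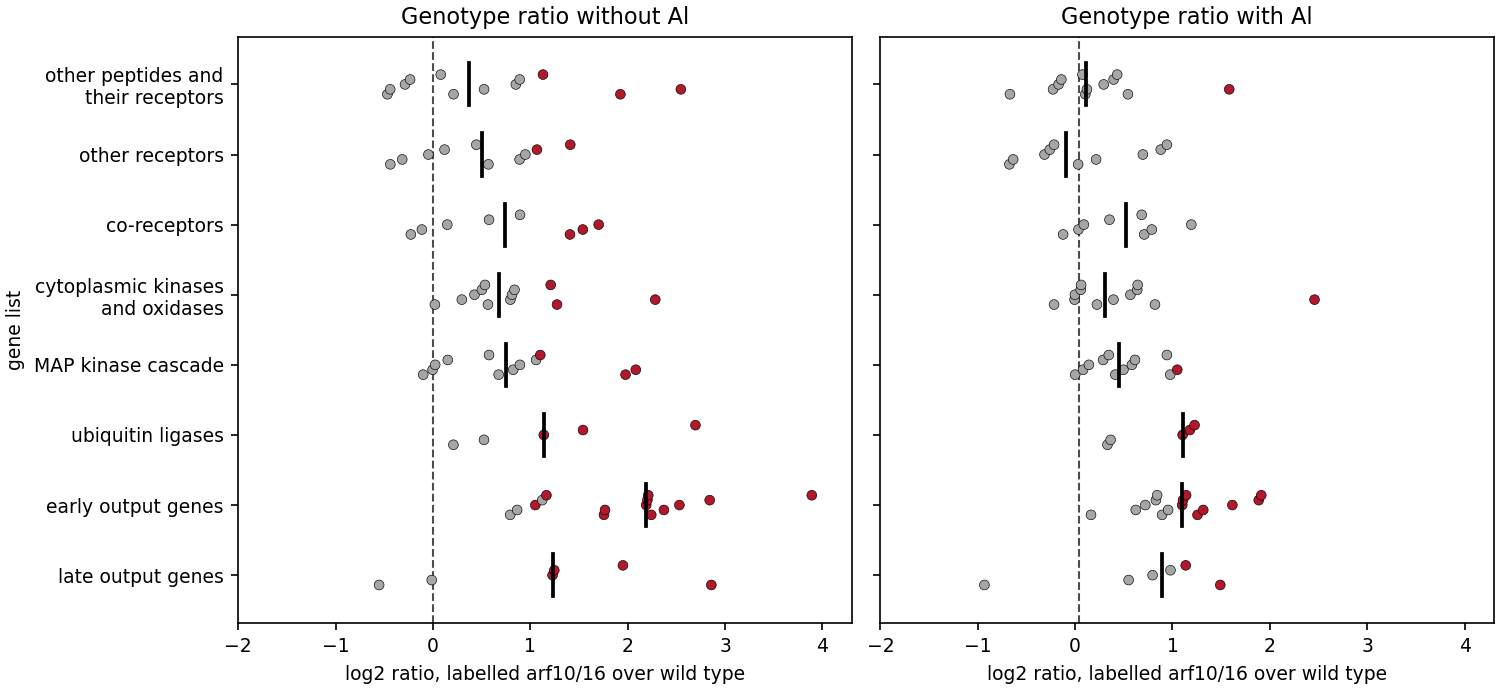
Log2 ratio of the line labelled arf10/16 over wild type without Al (left) and with Al (right) for the 80 listed genes above the filter, 1 point a gene, with the list median as a black bar and the median of all loci dashed. Red points are past the rule of size (33 of 80 without Al, 16 of 80 with Al), and without Al the early output genes have the highest median, 2.19.

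Between receptor and output lie co-receptors, kinases and an oxidase. Of 8 co-receptors and their regulators, 3 were higher without Al and 0 with Al (medians 0.74 and 0.52), against 7.96% and 4.12% of all loci. Among the 3 were BKK1, a close relative of BAK1 (3.36-fold, 2.38 to 4.82), and BIR1 (2.92-fold, 2.52 to 3.39). In edgeR's test 0 of the 8 rose (1.86% of all loci), with an adjusted p of 0.0501 for BKK1 and 0.137 for BIR1. BIR1 was also 2.21-fold higher with Al in wild type (1.90 to 2.58). Of 12 cytoplasmic kinases and oxidases, 3 were higher without Al and 1 with Al (medians 0.68 and 0.31), against 7.96% and 4.12% of all loci. The oxidase gene RBOHD, which makes the reactive oxygen burst, had 371 and 1631 reads without Al and 920 and 1222 with Al, wild type first, and PBL1 was 2.86-fold higher without Al (1.14 to 8.10) from 7 and 18 reads. Of these 12 genes, 0 rose in edgeR's test (1.86% of all loci), with an adjusted p of 0.071 for RBOHD and 0.584 for PBL1. The protein kinase gene AT5G47070 had its large ratios for Al: it was 7.99-fold higher with Al in wild type (4.94 to 13.7), against 9.70-fold for the treated library labelled arf10/16 (6.40 to 15.3). Of 12 genes of the MAP kinase cascade, 3 were higher without Al and 1 with Al (medians 0.75 and 0.46), against 7.96% and 4.12% of all loci. MPK3, a MAP kinase activated by these receptors, was 3.95-fold higher without Al (3.60 to 4.34) and 1.92-fold higher with Al (1.78 to 2.08). Its effect was 1.46 ± 0.26 (adjusted p = 0.0369, edgeR). MKS1, a MAP kinase substrate, was 4.49-fold higher without Al (2.95 to 7.06). It did not pass edgeR's test (adjusted p = 0.0873), in which 2 of these 12 genes rose (1.86% of all loci). MPK11 had 1 and 4 reads without Al and 12 and 23 with Al, and was 12.6-fold higher with Al in wild type (1.86 to 537).

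Ubiquitin ligases of the PUB family dampen the signalling. Of 5, 3 were higher without Al and the same number with Al (medians 1.14 and 1.10), against 7.96% and 4.12% of all loci. In edgeR's test 3 rose (1.86% of all loci). PUB24 was 6.79-fold higher without Al (4.82 to 9.79) and 2.18-fold with Al (1.62 to 2.96), and PUB23 2.92-fold (2.67 to 3.18) and 2.35-fold (2.06 to 2.68). PUB22 was 2.86-fold lower with Al in wild type (2.40 to 3.41), and the pair labelled arf10/16 had a 2.77-fold lower level (2.45 to 3.14). PUB22 and PUB23 are close relatives whose counts could share reads.

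Among other danger peptides and their receptors, 3 of 12 were higher in the line labelled arf10/16 without Al and 1 with Al (medians 0.37 and 0.11), against 7.96% and 4.12% of all loci. AT4G28460, an uncharacterized protein in RefSeq, had 2 and 20 reads without Al and 46 and 52 with Al, wild type first, which made it 11.1-fold higher in the line labelled arf10/16 without Al (2.70 to 98.2) and 24.1-fold higher with Al in wild type (6.30 to 205). The receptor-like kinase gene AT4G08850 was 3.90-fold higher without Al (2.90 to 5.34) and 1.23-fold higher with Al (0.86 to 1.78). In edgeR's test 0 of the 12 rose (1.86% of all loci), with an adjusted p of 0.378 for AT4G28460 and 0.135 for AT4G08850. Of 10 other pattern receptors, 2 were higher without Al and 0 with Al (medians 0.51 and -0.09), against 7.96% and 4.12% of all loci. The 2 were LYK4, a lysin motif partner in chitin perception (2.70-fold, 2.07 to 3.56), and RLP30 (2.16-fold, 1.43 to 3.33). In edgeR's test 1 of the 10 rose (1.86% of all loci), but LYK4 (adjusted p = 0.0536) and RLP30 (adjusted p = 0.965) did not pass. RLP30 was 6.90-fold higher with Al in wild type (4.84 to 10.1).

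Late output genes of salicylic acid, camalexin and defence proteins were measured in 6 of 10 cases; PR1, PR2, PR5 and PDF1.2 were not analysed here. Of the 6, 4 were higher without Al in the line labelled arf10/16 and 2 with Al (medians 1.24 and 0.89), against 7.96% and 4.12% of all loci. For Al, 4 were higher in wild type and 3 in the other pair (14.4% and 10.8% of all loci). SARD1, a transcription factor of salicylic acid synthesis, was 7.68-fold higher without Al (5.29 to 11.5; effect 2.10 ± 0.31, adjusted p = 0.0265, edgeR). ICS1, which makes the precursor of salicylic acid, had 5 and 23 reads without Al and 54 and 81 with Al, wild type first, and was 5.12-fold higher without Al in the line labelled arf10/16 (1.90 to 17.2) and 11.3-fold higher with Al in wild type (4.56 to 36.2). In edgeR's test for genotype 2 of the 6 rose (1.86% of all loci), and ICS1 did not pass (adjusted p = 0.136).

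Most of the listed genes known to respond to touch or wounding were also higher without Al. Of 10, 8 were higher in the untreated library labelled arf10/16 and 2 with Al (medians 1.92 and 0.71), against 7.96% and 4.12% of all loci. LOX3 was 10.97-fold higher without Al (5.05 to 28.3) and LOX4 7.72-fold (5.31 to 11.6). In edgeR's test 3 of the 10 rose in the line labelled arf10/16 (1.86% of all loci). LOX4 passed it (adjusted p = 0.0428, edgeR), but LOX3 did not, with a genotype effect of 1.74 (log2, adjusted p = 0.115, edgeR). Among the others that did not pass were TCH2, TCH3 and TCH4, with genotype effects of 0.39, 0.35 and 0.98 (log2). TCH4 was 6.18-fold higher with Al in wild type (5.37 to 7.15). The summed reads of 11 such genes were 1405 and 3363 without Al and 2661 and 3713 with Al, wild type first. The part of handling in the levels of the receptor and peptide genes was not tested, and with 1 library a group it cannot be told apart from the genotype.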

How the data were processed

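Root RNA was sequenced in 4 libraries, 1 per genotype and treatment. The deposited count table gives whole reads per transcript model, with an empty mark for no reads (15308 cells over 25092 models), read as 0. The deposited RPKM table gives the authors' length- and depth-scaled values; with the counts it returned a whole model length within 0.01 bp for 100% of models. The choice of aligner, counter, build, strand setting and handling of shared reads is not given in the sources used here, so counts of similar or overlapping genes are uncertain.

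Model counts were summed per locus (22284), filtered with edgeR's filterByExpr (14739 kept) and scaled by TMM. Ratios have exact Clopper-Pearson intervals at 95% on both counts, which cover counting error only. With 1 library a group no pairwise difference has a replicate check. Listed genes other than the 8 were tested in an additive model of genotype and Al with edgeR 4.0.16 in R 4.3.3, with Benjamini-Hochberg adjustment over all loci kept and a threshold of 0.05. The test assumes that both genotypes respond alike to Al. The procedures were checked on counts simulated with the common dispersion of these libraries for every gene. Some genes were changed there for a single factor at a time. The genotype run thus held no Al response, and the Al run held the same response in both genotypes. That check cannot tell how the test behaves on genotype where many genes respond to Al, or where the Al responses differ. Alternatives were other scalings, filters, prior counts, 1 model per locus, DESeq2 1.42.0 and limma 3.58.1.

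The 8 genes and all lists were chosen with earlier results of these data known. From each list of signalling, output or touch genes, the text names the 2 highest genotype ratios without Al among genes past the rule of size (none was past it downward) and the largest Al ratio in wild type, plus BAK1, TCH2 and TCH3, chosen after their values were seen. Cell type markers are given by their counts, and those named were also chosen after their values were seen. For likeness, the 2 nearest loci to each gene with at least 100 reads were named. RefSeq names and sequences (TAIR10.1) were matched by locus identifier (99.3% of loci). No coordinates are printed, as the authors' build is not known.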

Additional observations from a re-analysis of the deposited data

Results flagged for a closer look

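Of the 8 genes, 3 had Al ratios of opposite sign in the genotypes, as did 22.7% of all loci kept. For 1 of the 8, PEPR1, both counting intervals also excluded 1, as for 0.855% of loci. The difference was not tested, since each group is 1 library. PROPEP1 was higher with Al in wild type and 1.01-fold lower in the pair labelled arf10/16, a log2 difference of -1.53, and the interval of the second ratio (0.73 to 1.41) held 1. PEPR1 was 1.37-fold higher and 1.87-fold lower, a difference of -1.36, and neither interval held 1. CERK1 was 1.81-fold higher and 1.09-fold lower, a difference of -0.97, and the interval of the second ratio held 1. In all 3 cases untreated wild type held the fewest reads of the 4 libraries.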

How the results depend on the processing

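The 160 alternative log2 ratios of the 8 genes (total counts, DESeq2 size factors, prior count 0.5, the model with the most reads, deposited RPKM) all stayed inside the main counting interval with 0 reversed, as did the 16 alternative differences of Al responses. Every setting rescales the same counts or changes the small number added to them, and each of the 8 genes has 1 model. Staying inside was thus likely from the start and is no replicate check. With a prior count of 0.5, 7 of the 8 genes were past the rule of size for genotype without Al. Scaling by total counts shifted the median of all loci to -0.13 (log2) for genotype without Al, gave 607 lower loci in place of 383, and called 1 listed gene lower for genotype with Al. In the additive model, genotype calls depended on the setting. Against 274 higher and 45 lower loci, total counts gave 127 higher, no filter gave 740 and 179, DESeq2 174 and 6, and limma-trend on RPKM 0 and 0 (2208 at an unadjusted p under 0.05). For the 80 listed genes, against 18, total counts gave 11 higher, no filter 32, and limma-trend 0 (41 at an unadjusted p under 0.05). For Al, DESeq2 gave 1049 higher and 690 lower loci against 2278 and 1924. The cause of these shifts was not tested. No library could be left out, since each group has 1, and none could be paired across groups. No paired analysis was possible because each group has 1 library. At 2080348 to 2280894 reads a library, FLS2 with Al and genes with a few reads allow no finer statement than their counting intervals.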

Other observations

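Some listed genes not named above stood out, chosen after their values were seen. PROPEP7, another precursor of the Pep family, had 48 and 35 reads without Al and 8 and 6 with Al, wild type first. It was 5.73-fold lower in Al-treated wild type (2.69 to 14.0), against 5.27-fold for the pair labelled arf10/16 (2.19 to 15.3), and its Al effect was -2.45 (log2, adjusted p = 0.00181, edgeR). AT5G44585, an uncharacterized protein in RefSeq, was 10.8-fold lower in Al-treated wild type (5.66 to 23.1), against 4.58-fold for the Al-treated library labelled arf10/16 (3.06 to 7.07). The metacaspase gene MC4, whose protein can cut PROPEP1, stayed between 1023 and 1141 reads in the 4 libraries, while MC5 had 17 and 18 reads without Al and 68 and 61 with Al. MC9, also a listed metacaspase gene, had 113 and 86 reads without Al and 261 and 197 with Al, wild type first. PAD3, the last enzyme of camalexin synthesis, was 1.498-fold lower in the line labelled arf10/16 without Al (0.93 to 2.44) and 1.93-fold lower with Al (1.44 to 2.62), against the other direction of SARD1 and ICS1. CPK28, a kinase that limits immune signalling, had 16 and 20 reads without Al and 3 and 22 with Al, wild type first.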
